A study of Mus musculus with 6 samples.

Results

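Retinoids are the derivatives of vitamin A. Retinol travels in blood bound to a carrier protein, enters cells through a membrane receptor, is oxidised to retinal and then to retinoic acid, and retinoic acid acts on nuclear receptors until cytochrome P450 enzymes break it down. In lung the pathway is best known for its roles in branching of the developing airways and in the formation of alveoli. Messenger RNA of 9 genes of this pathway was examined here, chosen by name and with earlier results of these data known. The genes were the carrier Rbp4, the receptor Stra6, the enzymes Dhrs3, Aldh1a1 and Aldh1a3, the intracellular binding proteins Crabp1 and Crabp2, the breakdown enzyme Cyp26b1, and Rarres2, a gene named for its response to retinoids. They are 9 of 24061 rows of a table of gene counts from mouse lung, and all 9 were among the 16089 genes tested.

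The table held 6 bulk RNA sequencing libraries. In 3 of them the lung came from mice with the genotype CCSP/TGFalpha, and in the other 3 from CCSP/- mice, labelled as controls. By their labels both groups carried CCSP and received doxycycline over 3 weeks. In such mice the promoter of the club cell gene CCSP commonly drives a doxycycline-dependent activator in lung epithelium, and TGFalpha is a ligand of the epidermal growth factor receptor. The labels give no age, sex or strain and do not say whether replicates were separate animals, so the p-values speak only to the variation among these 6 samples, which may be technical. Levels are given as CPM, counts scaled to a common depth on library totals scaled by TMM, and a gene is called changed at an edgeR quasi-likelihood p under 0.05 after Benjamini-Hochberg adjustment over all tested genes.

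Library totals lay between 21479006 and 24914322 counts. Lung markers were high throughout, with a sum of 10 alveolar type 2 cell genes between 21222 and 35925 CPM. The Tgfa row did not separate the groups (27.5 ± 2.10 CPM in CCSP/TGFalpha and 25.8 ± 2.94 CPM in CCSP/- lungs, SD, n = 3 each; edgeR adjusted p = 0.739). It can hold transgene reads only as far as the transgene matches the mouse gene. One library of each group stood apart. The sum of 15 skeletal muscle genes was 3738 CPM in CCSP/TGFalpha replicate 1 and 2079 CPM in CCSP/- replicate 1, against 71.1 to 91.1 CPM in the other libraries. The sum of 10 genes of basal and squamous epithelium was 434 and 616 CPM in the same libraries, against 6.87 to 18.003 CPM in the others, mostly Krt13, a keratin of stratified mucosa.

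Of the 9 retinoid genes, 2 passed the test and both rose: Aldh1a3, an enzyme that makes retinoic acid, and Stra6, the retinol receptor. Across all tested genes 5.03% rose and 3.29% fell, 8.33% in all. None of the 9 fell by edgeR or by limma-voom. By edgeR 1 was lower at an unadjusted p under 0.05, the enzyme Aldh1a1, which ranked 3110 by p among the 16089 tested genes. DESeq2 called that 1 gene lower. CPM values did not overlap between the groups for 4 of the 9 (3 higher, 1 lower), against 33.2% of all tested genes. The median log2 fold change of the 9 was 0.08, beside 0.01 over all tested genes. Aldh1a3 was higher by a factor of 19.0 and Stra6 by a factor of 9.02.

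**Figure D1:**
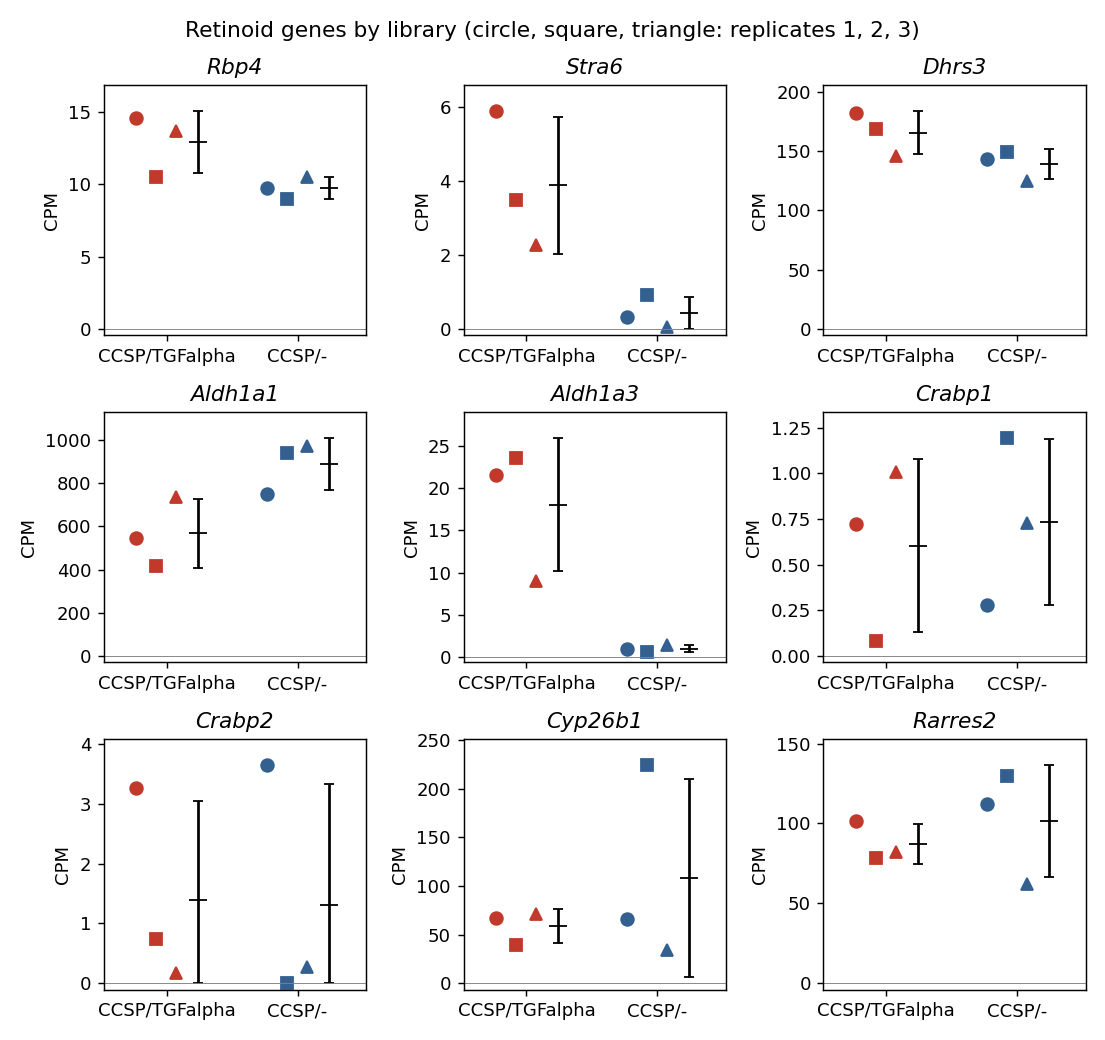
CPM of the 9 retinoid genes in each library, with CCSP/TGFalpha libraries in red on the left of each panel and CCSP/- libraries in blue on the right; black bars are means with SD (n = 3), drawn no lower than 0. Aldh1a3 and Stra6 were higher in every CCSP/TGFalpha library than in any CCSP/- library, Aldh1a1 was lower in each, and Cyp26b1 reached 224 CPM in CCSP/- replicate 2.

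Measured per kilobase of exon (RPKM), the members covered a wide range of levels. In CCSP/TGFalpha lungs Aldh1a1 had the highest level (237 ± 67.4 RPKM, SD, n = 3), followed by Rarres2 (105.0 ± 15.1) and Dhrs3 (68.3 ± 7.56). Cyp26b1 (11.04 ± 3.25) and Rbp4 (10.5 ± 1.73) came next and did not differ beyond their spread. Aldh1a3 (4.08 ± 1.78), Crabp2 (1.49 ± 1.77), Stra6 (1.07 ± 0.508) and Crabp1 (0.752 ± 0.589) were the least abundant, the last 3 within each other's spread. In CCSP/- lungs the order of the 5 most abundant was the same, with Aldh1a1 at 371 ± 49.96 RPKM, whereas Aldh1a3 (0.214 ± 0.0925) and Stra6 (0.117 ± 0.122) stood last.

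The carrier and the receptor of retinol differed in how far they separated the groups. Rbp4 encodes the protein that carries retinol in plasma. It was at 14.6, 10.52 and 13.7 CPM in CCSP/TGFalpha lungs, against 9.78, 8.98 and 10.50 CPM in CCSP/- lungs, so the groups touched without overlap. The log2 fold change was 0.41 ± 0.20 (SE; edgeR adjusted p = 0.233), with a 95% interval from -0.05 to 0.86. Fat tissue also expresses Rbp4. A sum of 10 adipocyte genes was highest in CCSP/TGFalpha replicate 2 (85.9 CPM, against 14.3 to 36.1 CPM elsewhere), where Rbp4 was lowest of its group. Liver also makes Rbp4, and of 7 liver genes 3 were tested and 1 rose (33.3%, beside 8.33% of all tested genes). That gene, Trf, encodes transferrin and is made in other tissues too. Albumin (Alb) was at 9.25, 0.411 and 28.8 CPM in CCSP/TGFalpha lungs, against 9.62, 0.916 and 1.23 CPM in CCSP/- lungs. The part of such tissues in the Rbp4 level was not tested.

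Stra6, on chromosome 9 (GRCm38, chr9:58063793-58154004), encodes the membrane receptor that takes up retinol from its carrier. It was at 5.90, 3.49 and 2.26 CPM in CCSP/TGFalpha lungs (139, 85 and 54 counts), against 0.321, 0.916 and 0.0456 CPM in CCSP/- lungs (8, 20 and 1 counts). Every CCSP/TGFalpha library was above every CCSP/- library, although each level was low. The log2 fold change was 3.17 ± 0.80 (SE; edgeR adjusted p = 0.0472; 95% interval 1.35 to 4.997). The gene passed the filter on low counts in 3 CCSP/TGFalpha libraries and 1 CCSP/- library. The call was lost whichever library was left out, with an adjusted p between 0.0627 (without CCSP/- replicate 2) and 0.157 (without CCSP/TGFalpha replicate 1) and a log2 fold change between 2.64 and 4.34. The RefSeq span of Stra6 overlaps that of Ccdc33, which was at 4.06 ± 1.01 CPM in CCSP/TGFalpha lungs and 8.15 ± 1.14 CPM in CCSP/- lungs, the opposite direction (adjusted p = 0.0595).

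Lrat, which esterifies retinol for storage, was at 98.0, 93.6 and 116 CPM in CCSP/TGFalpha lungs, against 83.0, 139.9 and 68.4 CPM in CCSP/- lungs (adjusted p = 0.871). Of the 3 tested genes of carotenoid uptake and cleavage the lipoprotein receptor Scarb1 had the smallest edgeR adjusted p (0.661).

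Retinol and retinal are interconverted by dehydrogenases that work in opposite directions. Dhrs3 reduces retinal back to retinol and lowers the supply of retinoic acid. It was at 182, 168 and 146 CPM in CCSP/TGFalpha lungs, against 143, 149 and 124 CPM in CCSP/- lungs, with overlap between CCSP/TGFalpha replicate 3 and CCSP/- replicate 2. Its log2 fold change was 0.25 ± 0.15 (SE; edgeR adjusted p = 0.321), and its 95% interval, from -0.09 to 0.60, excludes a doubling. Rdh10, the main retinol dehydrogenase of the embryo, which runs the opposite reaction, rose. It was at 63.7, 61.7 and 68.9 CPM in CCSP/TGFalpha lungs, against 29.4, 35.9 and 30.6 CPM in CCSP/- lungs (edgeR log2 fold change 1.02 ± 0.14; adjusted p = 0.00702). Leaving out CCSP/- replicate 3 ended the Rdh10 call (adjusted p = 0.0549), while leaving out any of the other 5 did not. Of 15 tested genes of retinol and retinal interconversion Rdh10 was the 1 that rose, and 14 did not pass. That is 6.67% called, beside 8.33% of all tested genes.

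The last step, from retinal to retinoic acid, is carried out by 3 retinal dehydrogenases, of which Aldh1a3 and Aldh1a2 rose and Aldh1a1 did not pass. Aldh1a3 (GRCm38, chr7:66390892-66427477) was at 21.6, 23.6 and 9.05 CPM in CCSP/TGFalpha lungs (508, 575 and 216 counts), against 0.922, 0.550 and 1.37 CPM in CCSP/- lungs (23, 12 and 30 counts). All 3 CCSP/TGFalpha libraries were far above the CCSP/- libraries, and replicate 3 was the lowest of them. The log2 fold change was 4.25 ± 0.48 (SE; edgeR adjusted p = 0.00294; 95% interval 3.16 to 5.34). The gene ranked 82 by p among all tested genes. It passed with any 1 library left out, at a log2 fold change between 3.98 and 4.59 (adjusted p at most 0.0256), and under every alternative fit.

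Aldh1a1 (GRCm38, chr19:20492583-20643463) is the most abundant of the family in these lungs. It was at 548, 416 and 737 CPM in CCSP/TGFalpha lungs, against 751, 939 and 973 CPM in CCSP/- lungs. The groups did not overlap, but CCSP/TGFalpha replicate 3 lay next to CCSP/- replicate 1. The log2 fold change of -0.65 ± 0.23 (SE) did not pass (edgeR adjusted p = 0.122; 95% interval -1.18 to -0.11), and DESeq2 gave an adjusted p of 0.0325. Its near copy Aldh1a7 was at 118, 67.7 and 126 CPM in CCSP/TGFalpha lungs, against 120.4, 129 and 131 CPM in CCSP/- lungs (edgeR adjusted p = 0.449). Of the 50-base stretches of the Aldh1a1 transcript 6.54% are also present in Aldh1a7, so a part of the reads may have been shared between the rows.

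Aldh1a2, the retinal dehydrogenase of embryonic mesoderm and of mesothelium, rose. It was at 130.4, 149.7 and 82.6 CPM in CCSP/TGFalpha lungs, against 33.8, 27.9 and 7.62 CPM in CCSP/- lungs (log2 fold change 2.39 ± 0.49; edgeR adjusted p = 0.0281). The call was lost without CCSP/TGFalpha replicate 1 (adjusted p = 0.0868), CCSP/TGFalpha replicate 2 (0.0718) or CCSP/- replicate 2 (0.1004), and in the robust edgeR fit (0.0553).

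Per kilobase of exon, the 3 genes together summed to 291, 245 and 346 RPKM in CCSP/TGFalpha lungs, against 329, 405 and 410 RPKM in CCSP/- lungs. These sums overlapped (exact permutation p = 0.2, 2-sided). The makeup differed more than the sum. Aldh1a1 made up 78.5, 70.9 and 88.9% of the sum in CCSP/TGFalpha lungs, against 95.4, 96.9 and 99.1% in CCSP/- lungs. Aldh1a2 made up 19.8, 27.0 and 10.5% in CCSP/TGFalpha lungs, against 4.54, 3.05 and 0.821% in CCSP/- lungs. Aldh1a3 held 0.589 to 2.17% in CCSP/TGFalpha lungs, against 0.0306 to 0.0753% in CCSP/- lungs. For each of these shares the groups did not overlap, and the exact permutation p of 0.1 (2-sided) is the smallest that 3 against 3 libraries allow.

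**Figure D2:**
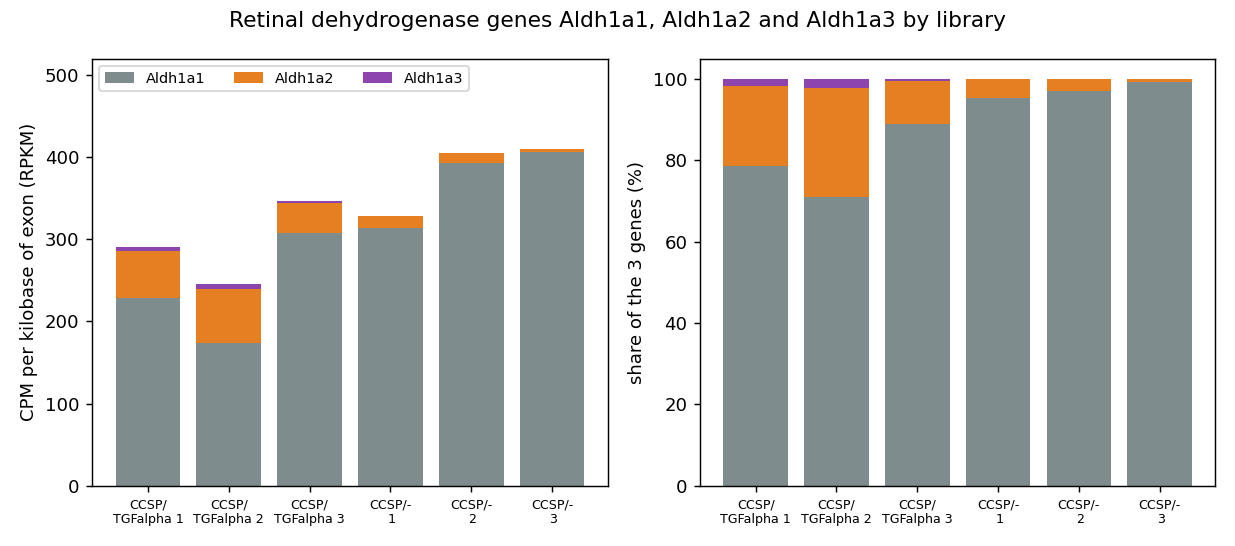
Levels of Aldh1a1, Aldh1a2 and Aldh1a3 stacked for each library, as RPKM on the left and as percent of the sum of the 3 genes on the right. Aldh1a1 made up 70.9 to 88.9% in CCSP/TGFalpha libraries and 95.4 to 99.1% in CCSP/- libraries.

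Sums of cell type markers separated the groups for some cell types and not for others. Those of skeletal muscle, adipocyte, myofibroblast and smooth muscle, goblet cell, basal and squamous epithelium, alveolar type 2 cell and macrophage genes overlapped. That of 7 liver genes was higher without overlap (1027 to 1430 CPM in CCSP/TGFalpha lungs, against 313 to 467 CPM in CCSP/- lungs). Of these 7 genes 3 were tested and 1 rose (33.3%, beside 8.33% of all tested genes). That gene was Trf, which is made in other tissues too, so the sum does not stand for liver transcripts alone. The sum of 8 club cell genes was 5432 to 7122 CPM in CCSP/TGFalpha lungs and 9748 to 11910 CPM in CCSP/- lungs, and that of 12 endothelial genes was 1271 to 2313 CPM in CCSP/TGFalpha lungs and 2509 to 4591 CPM in CCSP/- lungs. CCSP/TGFalpha replicate 3, the library with the most Aldh1a1 of its group, was also the highest of its group in both sums. Among CCSP/- lungs replicate 3 had the most Aldh1a1 and the highest club cell sum, but replicate 2 had the highest endothelial sum. The club cell sum was lowest in CCSP/TGFalpha replicate 1, whereas Aldh1a1 was lowest in CCSP/TGFalpha replicate 2. In both groups the sum of alveolar type 1 cell genes ordered the replicates as Aldh1a1 did. It was 2934, 2387 and 3911 CPM in CCSP/TGFalpha lungs, against 4524, 6353 and 6713 CPM in CCSP/- lungs. The sums of ciliated cell, red cell and heart muscle genes were likewise lower without overlap, at 440 to 514, 7268 to 12785 and 54.4 to 94.0 CPM in CCSP/TGFalpha lungs, against 623 to 700.4, 17334 to 39877 and 100.6 to 156 CPM in CCSP/- lungs. The sum of 15 fibroblast genes was 6442 to 9514 CPM in CCSP/TGFalpha lungs and 2464 to 3006 CPM in CCSP/- lungs. Of these 15 genes 6 rose and 9 did not pass, which is 40% called beside 8.33% of all tested genes. Among the 9 that did not pass 6 had a negative log2 fold change, and the median of the 15 was 0.29. Collagen genes such as Col3a1 (3068 to 5001 CPM in CCSP/TGFalpha lungs, against 578 to 726 CPM in CCSP/- lungs) made up most of the sum in CCSP/TGFalpha lungs. Their part in the retinoid results was not tested, and in bulk tissue fewer cells of a type and less RNA per cell cannot be told apart. The sum of 9 mesothelial genes without Aldh1a2 was 654, 504 and 549 CPM in CCSP/TGFalpha lungs, against 531, 591 and 301 CPM in CCSP/- lungs, with overlap. Its members differed, however. Wt1, a transcription factor of mesothelium, rose (144, 131 and 84.97 CPM in CCSP/TGFalpha lungs, against 11.2, 12.7 and 0.730 CPM in CCSP/- lungs; edgeR adjusted p = 0.0274), while the keratin Krt19, which epithelium also expresses, fell (adjusted p = 0.0499). Of the 9 genes 3 were higher and 1 lower without overlap, against 17.7% higher and 15.5% lower of all tested genes. CCSP/- replicate 3, the library with the least Aldh1a2, was also the lowest CCSP/- library for 8 of the 9, Krt19 being the exception. The CCSP/TGFalpha lungs did not follow this order, since replicate 2 had the most Aldh1a2 and the lowest sum of its group (504 CPM). The part of mesothelium in the Aldh1a2 result was not tested.

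The 3 genes whose profile over the 6 libraries was closest to that of Aldh1a3 were Nxpe5, Enpp3 and Grem1, by the root mean square difference of centred log2 CPM over 14976 named genes. Enpp3, an ectonucleotidase, was at 39.2, 49.6 and 17.5 CPM in CCSP/TGFalpha lungs, against 1.803, 1.51 and 2.74 CPM in CCSP/- lungs (difference from Aldh1a3 0.156). Nxpe5 (0.104) lay closest, and Grem1 (0.430), a secreted antagonist of bone morphogenetic proteins, was further away.

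The retinoic acid binding proteins Crabp1 and Crabp2, which carry retinoic acid to breakdown enzymes and to nuclear receptors, were at the edge of detection. Crabp1 had 17, 2 and 24 counts in CCSP/TGFalpha lungs, against 7, 26 and 16 counts in CCSP/- lungs. The groups overlapped (log2 fold change -0.28 ± 0.87; edgeR adjusted p = 0.863), and the 95% interval of -2.27 to 1.72 leaves changes of several-fold undetectable at this depth.

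Crabp2 had 77, 18 and 4 counts in CCSP/TGFalpha lungs (3.27, 0.740 and 0.168 CPM), against 91, 0 and 6 counts in CCSP/- lungs (3.65, 0 and 0.274 CPM). The 0 counts in CCSP/- replicate 2 allow a level of up to 3 counts. The spread was between replicates and not between groups (log2 fold change 0.08 ± 1.41; edgeR adjusted p = 0.978). The 2 high libraries, replicate 1 of each group, were those with high skeletal muscle and squamous epithelium sums. Skin and other stratified epithelia are known to express Crabp2. The part of such tissue in the Crabp2 level was not tested. Without CCSP/- replicate 1 the log2 fold change was 3.29 (adjusted p = 0.226), and without CCSP/TGFalpha replicate 1 it was -1.53 (0.670). Another binding protein, Fabp5, which can also carry retinoic acid, did not pass (log2 fold change -0.33 ± 0.41; adjusted p = 0.637).

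**Figure D3:**
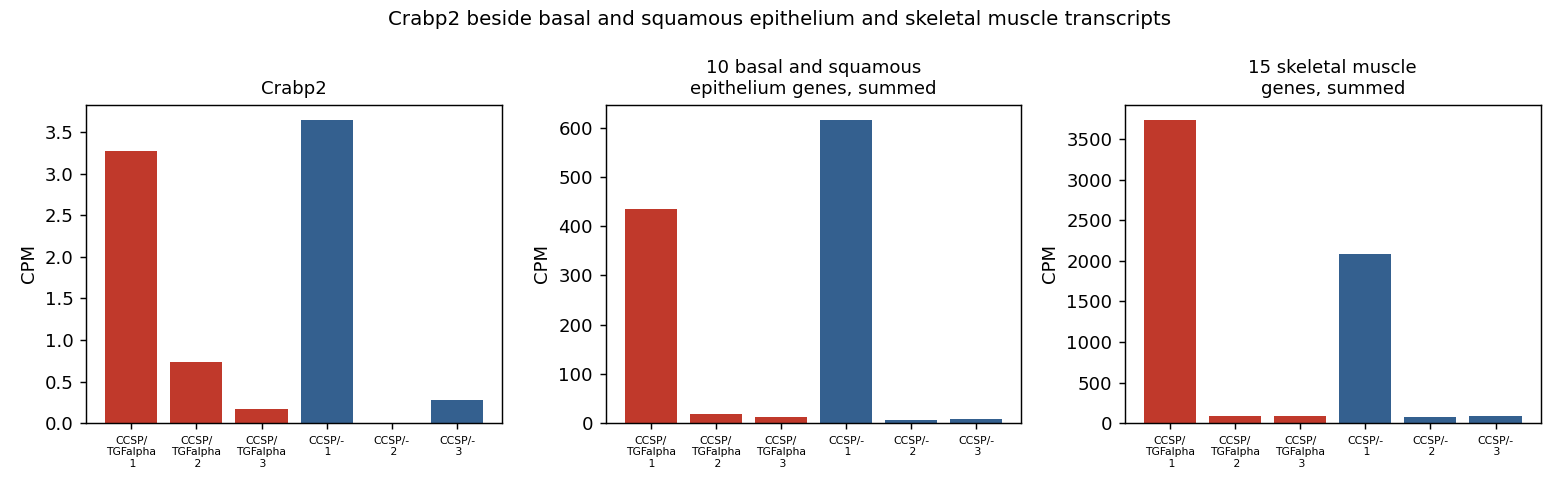
CPM by library of Crabp2 and of the summed basal and squamous epithelium and skeletal muscle genes, with CCSP/TGFalpha libraries in red and CCSP/- libraries in blue. Replicate 1 of each group is highest in all 3 panels, with Crabp2 at 3.27 and 3.65 CPM.

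Breakdown of retinoic acid is the task of the CYP26 enzymes. Cyp26b1 (GRCm38, chr6:84571414-84593908), the family member with the highest level here, was at 66.8, 39.2 and 71.3 CPM in CCSP/TGFalpha lungs, against 66.3, 224 and 34.5 CPM in CCSP/- lungs. The CCSP/TGFalpha libraries fell within the range of the CCSP/- libraries, of which replicate 2 was far above the other two. Its log2 fold change was -0.87 ± 0.60 (SE; edgeR adjusted p = 0.381; 95% interval -2.24 to 0.49). Without CCSP/- replicate 2 it was 0.23 (adjusted p = 0.744), so its sign rested on that library.

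Cyp26a1, a second member of the family and a classical target of retinoic acid in many tissues, rose and was low in both groups. It had 36, 43 and 44 counts in CCSP/TGFalpha lungs (1.53, 1.77 and 1.84 CPM), against 4, 0 and 2 counts in CCSP/- lungs (0.160, 0 and 0.0913 CPM). The log2 fold change was 4.23 ± 0.78 (edgeR adjusted p = 0.0197), and the gene passed the filter on low counts only through the CCSP/TGFalpha libraries. Only leaving out CCSP/- replicate 1 kept the Cyp26a1 call; the other 5 fits gave an adjusted p between 0.0523 and 0.120. Cyp26a1 made up 6.40, 11.9 and 7.17% of the summed CYP26 RPKM in CCSP/TGFalpha lungs, against 0.717, 0 and 0.784% in CCSP/- lungs. Cyp26c1 had 0 counts in all 6 libraries. Cyp2s1, whose human counterpart can oxidise retinoic acid, fell (53.1, 47.5 and 73.7 CPM in CCSP/TGFalpha lungs, against 112, 109.6 and 87.5 CPM in CCSP/- lungs; adjusted p = 0.0437). Of the 6 fits with 1 library left out, that without CCSP/TGFalpha replicate 3 kept the Cyp2s1 call, and the others gave an adjusted p between 0.0889 and 0.142.

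Retinoic acid receptors bind direct repeats of a short hexamer, and the stretches before gene starts were searched for it. The hexamer is AGGTCA, and the spelling AGTTCA was accepted as well, as were the related form GGGTCA and, by the same token, GGTTCA. RefSeq start sites on GRCm38.p6 were matched for 6 of the 9 genes and 60 of the other 83 pathway genes, and the 250 bases before each start were searched on both strands. A direct repeat of these hexamers with 5 bases between them (DR5) was found for Cyp26a1 and Rarb, the beta receptor, and in 29 of 32851 windows of all genes (0.0883%). Such repeats were not in the windows of the 6 matched members (Aldh1a1, Crabp1, Cyp26b1, Dhrs3, Rbp4 and Stra6). A match is to letters only and shows no binding. The element of Cyp26a1 (chr19:37697770-37697798, plus strand) is 32 bases before a RefSeq start, with the repeat on the opposite strand. That of Rarb (chr14:16575507-16575535, minus strand) is 53 bases before a RefSeq start. Each element lies inside the RefSeq span of its gene (Cyp26a1 chr19:37697738-37701536, Rarb chr14:16430839-17082331), so it is not before the outermost start. Both are shown with the hexamers in capitals:
Cyp26a1: taaagaTGAACTttgggTGAACTaatttg
Rarb: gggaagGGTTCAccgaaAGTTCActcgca
A single hexamer is on either strand in 38.6% of all windows. For comparison, windows before a RefSeq start of Stra6 and of Cyp26b1 are printed in lower case because neither holds any of the 4 hexamers. The Stra6 window, 1 of several searched for that gene, lies inside its RefSeq span (chr9:58063793-58154004), so it is not before the outermost start. That of Cyp26b1 lies partly inside the span of its gene. Stra6 (chr9:58128838-58129087, plus strand) is the called member among the 6, and Cyp26b1 (chr6:84593811-84594060, minus strand) the relative of Cyp26a1 that did not pass:
Stra6: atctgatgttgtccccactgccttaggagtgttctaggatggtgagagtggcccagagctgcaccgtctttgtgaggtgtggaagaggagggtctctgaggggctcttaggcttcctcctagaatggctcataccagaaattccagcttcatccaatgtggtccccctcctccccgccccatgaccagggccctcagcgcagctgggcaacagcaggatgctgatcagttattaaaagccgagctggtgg
Cyp26b1: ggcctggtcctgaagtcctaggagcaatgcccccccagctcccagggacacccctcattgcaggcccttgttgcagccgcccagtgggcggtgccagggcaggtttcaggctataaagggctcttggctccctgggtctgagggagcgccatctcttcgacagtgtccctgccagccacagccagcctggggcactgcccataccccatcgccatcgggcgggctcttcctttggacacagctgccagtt

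Of 7 receptor genes of retinoic acid and their partners tested, Rara, the alpha receptor, fell and 6 did not pass, which is 14.3% called beside 8.33% of all tested genes. CPM values did not overlap between the groups for 5 of the 7 (2 higher, 3 lower), against 33.2% of all tested genes. Rara was at 33.6, 36.1 and 33.1 CPM in CCSP/TGFalpha lungs, against 54.9, 45.6 and 54.1 CPM in CCSP/- lungs (edgeR log2 fold change -0.59 ± 0.14; adjusted p = 0.0422). Rara no longer passed with any 1 library left out (adjusted p between 0.0801 and 0.160). Rarb, which carries the DR5 element shown above, was at 33.0, 28.5 and 24.0 CPM in CCSP/TGFalpha lungs, against 23.2, 23.8 and 21.9 CPM in CCSP/- lungs. All 3 were above the CCSP/- libraries by little (log2 fold change 0.31 ± 0.16; adjusted p = 0.263).

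Among 14 tested genes known as retinoic acid targets in other settings, 1 rose and 1 fell (14.3%, beside 8.33% of all tested genes). Their median log2 fold change was -0.13. Cyp26a1, described above, was listed with the breakdown enzymes. Cd38, an ectoenzyme that consumes NAD and is induced by retinoic acid in myeloid cells, was at 237, 297 and 207 CPM in CCSP/TGFalpha lungs, against 74.5, 136 and 108 CPM in CCSP/- lungs (log2 fold change 1.22 ± 0.24; edgeR adjusted p = 0.0245). Hoxb5, a patterning gene of developing lung mesenchyme, was at 2.04, 2.63 and 3.02 CPM in CCSP/TGFalpha lungs, against 4.25, 7.38 and 8.03 CPM in CCSP/- lungs (-1.35 ± 0.33; 0.0460). Both groups of values were separate. The Cd38 call was lost without CCSP/TGFalpha replicate 1, CCSP/TGFalpha replicate 2 or CCSP/- replicate 3 (adjusted p = 0.0706, 0.0691 and 0.120), and that of Hoxb5 in 5 of 6 such fits, all but the one without CCSP/- replicate 1 (between 0.0693 and 0.182). Hoxb5 did not pass by limma-voom either (adjusted p = 0.0603).

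Rarres2 (GRCm38, chr6:48569696-48572845) encodes chemerin, a secreted attractant of macrophages and other immune cells that was first named for its response to a synthetic retinoid in human skin. It was at 102, 78.1 and 82.3 CPM in CCSP/TGFalpha lungs, against 112, 129.6 and 62.1 CPM in CCSP/- lungs. The CCSP/TGFalpha libraries fell inside the CCSP/- range (log2 fold change -0.21 ± 0.26; edgeR adjusted p = 0.637; 95% interval -0.82 to 0.39). Of the 50-base stretches of the Rarres2 transcript 24.9% are also in transcripts of Lrrc61, whose span overlaps it, so reads there cannot be assigned to 1 gene. Lrrc61 was at 30.6 ± 4.91 CPM in CCSP/TGFalpha lungs and 37.7 ± 9.66 CPM in CCSP/- lungs (adjusted p = 0.410).

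Ccrl2, a membrane protein that binds chemerin and presents it to neighbouring cells, fell. It was at 14.6, 20.96 and 22.99 CPM in CCSP/TGFalpha lungs, against 37.2, 51.1 and 52.4 CPM in CCSP/- lungs (log2 fold change -1.27 ± 0.22; edgeR adjusted p = 0.0160). The call was lost without CCSP/- replicate 2 (adjusted p = 0.0690) or CCSP/- replicate 3 (0.0791). The signalling receptor of chemerin, Cmklr1, was at 22.2, 34.8 and 36.9 CPM in CCSP/TGFalpha lungs, against 27.9, 35.8 and 40.5 CPM in CCSP/- lungs (adjusted p = 0.709).

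**Figure D4:**
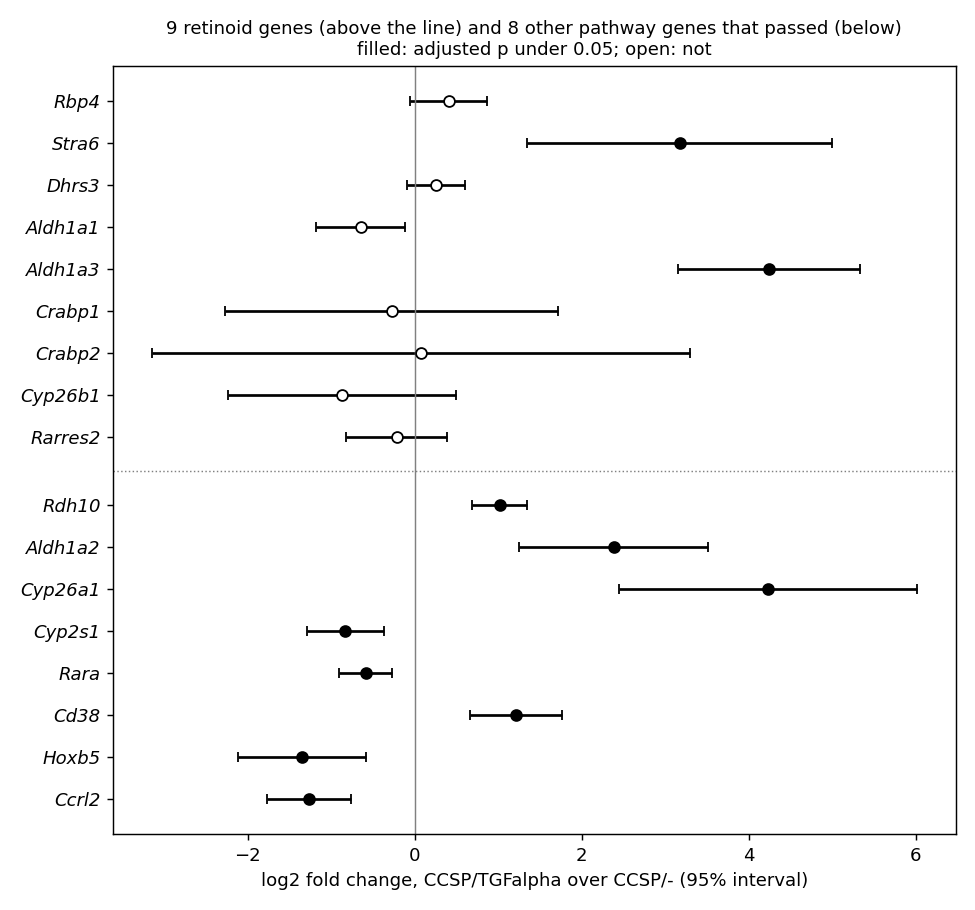
Log2 fold change of CCSP/TGFalpha over CCSP/- lungs with its 95% interval for the 9 retinoid genes, above the dotted line, and for 8 other pathway genes that passed, below it; filled points passed the edgeR test. Aldh1a3 (4.25) and Cyp26a1 (4.23) have the highest values and Hoxb5 (-1.35) the lowest.

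In the whole wider pathway, 83 genes outside the 9 were listed and 65 were tested, of which 5 rose (among them Rdh10, Aldh1a2, Cyp26a1 and Cd38) and 4 fell (Cyp2s1, Rara, Hoxb5 and Ccrl2). That is 13.8% of those tested, beside 8.33% of all tested genes, and the median log2 fold change was -0.13. The lists were chosen with earlier results of these data known, so this share is not a test of the pathway. Of the called genes outside the 9, Cyp26a1 passed the filter on low counts only through the CCSP/TGFalpha libraries. Among the 9, Stra6 reached the cutoff of that filter in 3 CCSP/TGFalpha libraries and 1 CCSP/- library. Rdh10 passed in 5 of the 6 fits with 1 library left out. With replicate 1 of both groups left out, the fit kept Aldh1a3 among the 9 (473 genes called in all) and, among the other pathway genes named here, Rdh10 and Ccrl2.

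**Figure D5:**
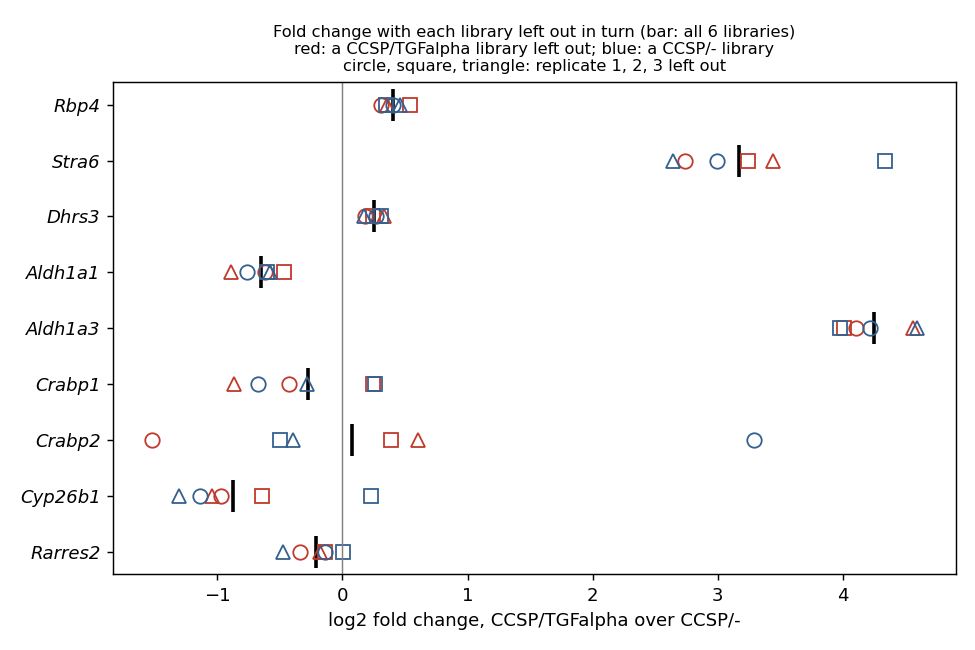
Log2 fold change of each of the 9 retinoid genes with all 6 libraries (black bar) and with each library left out in turn (open symbols, red for a CCSP/TGFalpha and blue for a CCSP/- library). Aldh1a3 stays between 3.98 and 4.59, while Crabp2 ranges from -1.53 to 3.29 and Cyp26b1 crosses 0 without CCSP/- replicate 2.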

How the data were processed

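Total RNA from mouse lung was made into Illumina libraries, per the labels' protocols. For 6 libraries the authors deposited gene counts in 1 table, whole numbers with no normalization. The submitters' processing notes name bcl2fastq, CASAVA 1.8, TopHat and DESeq and the build mm10. The counting tool, its strand setting and the annotation are not given in the sources used here, so overlapping and antisense genes cannot be separated.

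Columns were matched to samples by their description label, and groups of 3 were taken from the titles. Entrez identifiers were paired with symbols through RefSeq genes on GRCm38.p6 (23976 of 24061 rows; the 85 others stayed in totals and tests). The test was edgeR 4.0.16 (R 4.3.3) quasi-likelihood with TMM scaling, the expression filter by group and a model of group only. Standard errors come from the coefficient and the F statistic. RPKM divides CPM by the exon length in GENCODE M21. The steps were tested on simulated data. No duplicate libraries were found (chi-square per degree of freedom of 46.6 or more within groups). Intervals and floors cover counting or sample error only.

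The members and gene lists were chosen with earlier results of these data known. The rule for named genes takes the 9 members, each pathway gene that passed, the gene with the smallest adjusted p of each pathway list with none, and the 3 genes most like the member with the smallest p; an item of these lists is not reported here. Aldh1a7, Akr1b8, Lrat, Cyp26c1, Rarb, Cmklr1, Krt13, Trf, Alb, Ccdc33, Lrrc61, Sdr16c5 and Sdr16c6 were named after their values were seen. Alternatives used DESeq2 1.42.0 and limma 3.58.1.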

Additional observations from a re-analysis of the deposited data

How the results depend on the processing

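The number of genes called, 1340, depended on single libraries and on the tool. It was 238 to 1088 with 1 library left out, 2493 by DESeq2, 260 at an adjusted p of 0.01, 294 when tested against a 1.5-fold change, and 473 with replicate 1 of both groups left out, an alternative chosen after seeing the data. The 2 retinoid genes that rose became 1 (Aldh1a3) in every fit with 1 library left out (1 to 1), at an adjusted p of 0.01, against a 1.5-fold change and with both replicates 1 left out. The count of members that fell, 0, became 1 by DESeq2 (Aldh1a1) and stayed 0 with any 1 library left out. The 9 other pathway genes called became 2 to 7 with 1 library left out, 2 at an adjusted p of 0.01, 2 against a 1.5-fold change and 3 with both replicates 1 left out. The cause was not tested. With 1 library left out the sign turned for Crabp1 (-0.87 to 0.26), Crabp2 (-1.53 to 3.29), Cyp26b1 (-1.30 to 0.23) and Rarres2 (-0.47 to 0.0050), and none of these passed. No sign turned for the other 5 members under any alternative. Crabp1 and Crabp2 were not tested under the filter of 1 CPM in 3 libraries, nor Crabp2 with both replicates 1 left out.

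Whether replicate numbers pair the libraries is not known, since the labels do not say. Deviations of same-numbered libraries correlated at 0.42, -0.05 and 0.22. The value of 0.42, for replicate 1, was the highest between any libraries of the 2 groups. CCSP/TGFalpha replicate 3 correlated best with CCSP/- replicate 2 (0.38). With so few libraries these values cannot settle the pairing. With the replicate block 1470 genes were called, 2 members rose, 0 fell (1 was lower at an unadjusted p under 0.05), and 8 other pathway genes passed, with Rara (adjusted p = 0.0790) and Cyp2s1 (0.0521) lost and Akr1b8 added. Depth limits Aldh1a3, Crabp1, Crabp2, Stra6 and Cyp26a1, which had at most 91 counts in any CCSP/- library (Aldh1a3 at most 30).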

Other observations

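Genes of receptor cofactors, which turn retinoic acid receptors and other nuclear receptors on or off, mostly had lower values in CCSP/TGFalpha lungs without passing the test. None of 6 passed by edgeR, limma-voom or DESeq2, and 3 were lower at an unadjusted edgeR p under 0.05 (Ncoa1, Ncoa2 and Ncoa3). These ranked only 3024, 3001 and 2969 by p among the 16089 tested genes, so such p-values were common. The CPM values did not overlap between groups for 5, all lower, against 15.5% of all tested genes. Ncoa3, a coactivator, had the smallest adjusted p (0.116). It was at 45.2, 72.4 and 71.8 CPM in CCSP/TGFalpha lungs, against 92.3, 91.5 and 94.9 CPM in CCSP/- lungs. CCSP/TGFalpha replicate 1 was the lowest of the 6 libraries for each of these 5 genes.

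Sdr16c5 and Sdr16c6, a pair of retinol dehydrogenases known from mouse skin, were not tested because of low counts. Sdr16c5 had 1, 0 and 0 counts in CCSP/TGFalpha lungs, against 49, 0 and 0 counts in CCSP/- lungs. Sdr16c6 had 29, 0 and 0 counts in CCSP/TGFalpha lungs, against 131, 0 and 0 counts in CCSP/- lungs. The libraries with counts were replicate 1 of each group, those with high squamous epithelium and skeletal muscle sums.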
